A study of Mus musculus with 6 samples.

Results

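The genes described here are those of zinc storage and zinc transport in the liver: the metallothionein genes *Mt1* and *Mt2*, the gene of the metal-sensing transcription factor *Mtf1*, the zinc importer genes *Slc39a1*, *Slc39a4*, *Slc39a5*, *Slc39a8* and *Slc39a14*, and the exporter genes *Slc30a1* and *Slc30a10*. They were chosen by name, with earlier results of these data known, as 10 of the 54446 genes that the deposited tables list. RNA-seq libraries of single reads were made from the livers of 3 wild-type (WT) mice and 3 *Fmo5*-/- mice, in which the gene of flavin-containing monooxygenase 5 is disrupted. All were males, the WT mice of strain C57BL/6J and the *Fmo5*-/- mice bred on that background, fed a standard chow diet, housed in adjacent cages and sampled in the morning. The mice were 32 weeks old. Each library holds between 44886286 and 52338675 reads counted on genes, and a gene with no count in a library may still have had up to 3 counts, or 0.0573 to 0.0668 CPM (counts scaled to the library's total). Such limits cover counting error only.

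Zinc enters the cytosol through transporters of the SLC39 or ZIP family and leaves it, to the outside or into vesicles, through those of the SLC30 or ZnT family. Metallothioneins are small cysteine-rich proteins that bind zinc and copper in the cytosol. In hepatocytes their transcription is known to respond to zinc through MTF1, which binds metal response elements (MREs) in DNA, and also to glucocorticoids and to interleukin-6. ZIP14, ZIP8 and ZnT10 also carry manganese, which the liver passes into bile.

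*Slc39a4* doubled in *Fmo5*-/- mice, and it was the only one of the 10 genes that passed the threshold. Its transcripts rose 2.0-fold (95% confidence interval 1.63 to 2.47). *Mt1* and *Mt2* had higher means in *Fmo5*-/- mice, by 1.78-fold and 2.72-fold, and neither passed the threshold. The other 7 genes did not pass either, and for 6 of them the log2 fold change lay within 0.25 of 0. A gene was called where its Benjamini-Hochberg adjusted p, from the quasi-likelihood test of edgeR over 16734 tested genes, was under 0.05. Of all tested genes 1.37% were called, 0.675% higher and 0.693% lower in *Fmo5*-/- mice, against 1 of the 10 genes described here, called higher. At an unadjusted p under 0.05 there were 3 of the 10 genes, and 21.8% of all tested genes. All 10 genes were tested, with a median log2 fold change of 0.011 against 0.0058 over all tested genes. The 3 *Fmo5*-/- mice lay wholly apart from the 3 WT mice for *Slc39a4* and *Mt1*, 2 of the 10 genes, where 27.4% of all tested genes showed no overlap. DESeq2's Wald test on the same counts called *Slc39a4* and *Mt1*, both higher, while over all genes for which it gives an adjusted p it called 8.96%, made up of 4.75% higher and 4.21% lower.

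**Figure D1:**
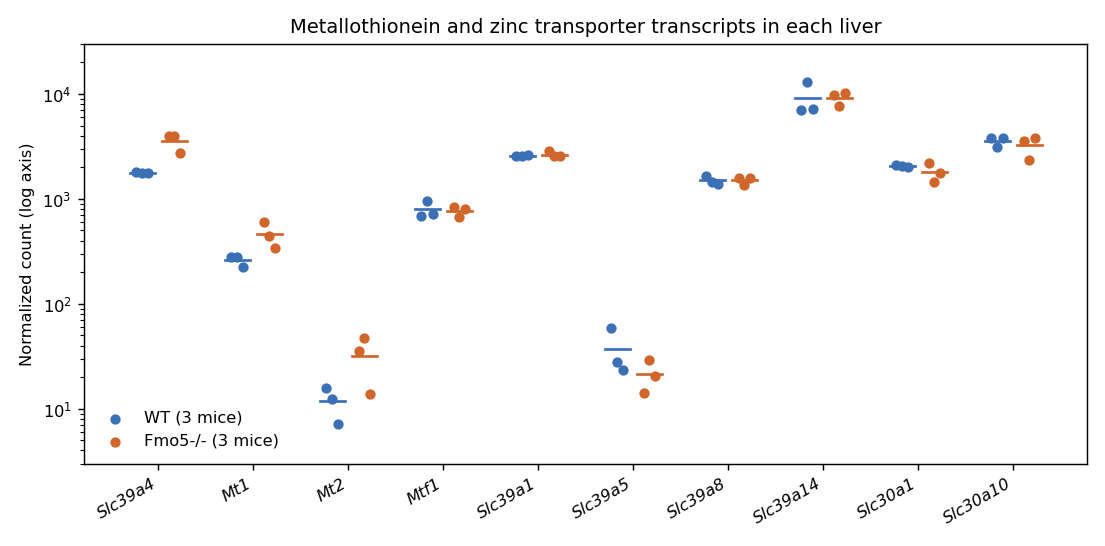
Normalized counts (log axis) of the 10 genes in each liver, with WT mice in blue, *Fmo5*-/- mice in orange and a line at each mean of 3 mice. For *Slc39a4* the *Fmo5*-/- mice sit between 2766 and 3941 and the WT mice between 1756 and 1805. For *Slc39a14* 1 WT mouse, at 13099, stands above the other 5.

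The labels were checked on *Fmo5* itself, with a mean of 35818 ± 4978 normalized counts for WT and 1122 ± 63.7 for *Fmo5*-/- (SD over 3 mice in both cases). Markers of hepatocytes, 7 of 7, were present in all libraries at summed levels that overlap between the genotypes. Markers of other cells did not all overlap. All 7 Kupffer cell and macrophage markers had higher means in *Fmo5*-/- mice, where 50.8% of all tested genes were higher. Their summed normalized counts were 8824 to 10512 in WT mice and 13850 to 25310 in *Fmo5*-/- mice. By edgeR's test 1 of the 7 was called, *Clec4f*, and DESeq2 called 6. The 7 lymphocyte markers summed to 184 to 313 in WT mice and 357 to 990 in *Fmo5*-/- mice, and the 6 neutrophil markers to 141 to 249 and 297 to 589. EdgeR called 0 of the 7 lymphocyte markers, with 4 at an unadjusted p under 0.05, and DESeq2 called 3. Of the neutrophil markers 3 were tested, all 3 with higher means in *Fmo5*-/- mice, and edgeR called 1, *Csf3r*, the receptor gene of granulocyte colony-stimulating factor (log2 fold change 1.25, adjusted p = 0.0468), while DESeq2 called 2. Over all tested genes edgeR called 1.37%, and 21.8% had an unadjusted p under 0.05, while DESeq2 called 8.96% of the genes for which it gives an adjusted p. None of these markers was at 0 throughout, although the neutrophil gene *Ly6g* had at most 1 count in any library. In bulk liver, more cells of a type and more RNA per cell cannot be told apart. The part of these cells in the values below was not tested.

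Promoter sequences are shown for the metallothionein genes and for the exporter genes *Slc30a1* and *Slc30a10*, 4 of the 6 genes that hold the letters of the MRE core. The means of the first pair were higher in *Fmo5*-/- mice and those of the exporter genes were not. *Slc39a5* and *Slc39a8*, which also hold the letters, had log2 fold changes of -0.79 and 0.0050. RefSeq's promoter table (GRCm38.p6, the same assembly as mm10) has windows for 8 of the 10 genes, and has none for *Slc39a4* and *Slc39a14*. Each sequence is the 250 bases before the annotated start, 5′ to 3′ on the gene's own strand, and capitals mark matches to the MRE core, searched as TGCACNC and TGCGCNC on both strands. All 4 genes are on the plus strand, with *Mt1* at chr8:94178839-94179088, *Mt2* at chr8:94172368-94172617, *Slc30a1* at chr1:191906531-191906780 and *Slc30a10* at chr1:185454598-185454847.
*Mt1*: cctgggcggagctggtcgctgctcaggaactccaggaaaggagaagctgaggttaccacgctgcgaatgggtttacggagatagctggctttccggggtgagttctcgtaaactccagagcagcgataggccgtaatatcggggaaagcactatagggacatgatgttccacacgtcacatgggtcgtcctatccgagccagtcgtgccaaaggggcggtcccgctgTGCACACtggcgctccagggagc
*Mt2*: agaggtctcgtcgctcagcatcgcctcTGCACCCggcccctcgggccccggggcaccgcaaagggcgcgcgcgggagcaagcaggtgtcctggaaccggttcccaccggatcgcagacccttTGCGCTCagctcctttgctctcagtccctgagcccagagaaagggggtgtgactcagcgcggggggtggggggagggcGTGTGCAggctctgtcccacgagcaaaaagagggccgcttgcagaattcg
*Slc30a1*: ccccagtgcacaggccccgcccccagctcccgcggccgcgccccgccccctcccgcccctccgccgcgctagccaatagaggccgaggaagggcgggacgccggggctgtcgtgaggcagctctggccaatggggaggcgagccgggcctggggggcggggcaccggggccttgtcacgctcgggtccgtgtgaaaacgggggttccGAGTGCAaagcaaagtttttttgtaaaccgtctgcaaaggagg
*Slc30a10*: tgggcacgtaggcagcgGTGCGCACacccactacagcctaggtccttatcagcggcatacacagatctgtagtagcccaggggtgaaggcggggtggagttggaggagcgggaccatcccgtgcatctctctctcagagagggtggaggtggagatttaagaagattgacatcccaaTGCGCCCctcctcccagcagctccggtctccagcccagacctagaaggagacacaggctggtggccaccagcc

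*Mt2* holds 3 matches, which begin 223, 128 and 50 bases before the start, *Mt1* holds 1, 23 bases before it, and *Slc30a1* holds 1, 43 bases before it. *Slc30a10* also has 3, but 2 of these overlap on opposite strands, and begin 233 and 232 bases before the start. *Slc39a5* and *Slc39a8* each have a match in 1 of their 2 windows, and *Mtf1* and *Slc39a1* have none. Among all 32851 windows of this length, 21.4% hold at least 1 match and 1.26% hold 3 or more, so a single match is common. The antioxidant response element core TGACNNNGC was found on either strand in the windows of *Mt2*, *Slc30a1* and *Slc39a1* and in 1 of the 2 windows of both *Slc39a5* and *Slc39a8*, and in 10.2% of all windows. GENCODE vM21 lists further *Mt1* transcripts that begin 122 and 152 bases downstream of the start used here. Both *Mt2* transcripts it lists begin downstream of RefSeq's start, by 46 and 242 bases, so the distances given for *Mt2* are from a start that no GENCODE transcript of it uses. The bases just before these downstream starts are not in the windows. The numbers of matches given for *Mt1* and *Mt2* therefore leave out any that lie there. A match describes the letters only and does not show that a factor binds there.

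*Mt1* and *Mt2* lie 5513 bases apart on chromosome 8, in the same direction, and encode the metallothioneins of the liver. *Mt1* (ENSMUSG00000031765.8, chromosome 8, 94179082 to 94180327) gave 279.6, 282.3 and 222.9 normalized counts in WT livers, against 607.4, 445.2 and 342.6 in *Fmo5*-/- livers. Every *Fmo5*-/- mouse was above every WT mouse, and the third *Fmo5*-/- mouse was the nearest to them. Means were 262 ± 33.5 and 465 ± 133 (SD over 3 mice). The log2 fold change was 0.83, with a standard error of 0.21 and a 95% confidence interval of 0.36 to 1.30. EdgeR gave an adjusted p of 0.0757 and DESeq2 one of 0.00396. Leaving out each library in turn, *Mt1* was called in 1 of 6 fits, that without the third *Fmo5*-/- mouse (log2 fold change 1.01, edgeR adjusted p = 0.0169). That fit called 763 genes in all, against 229 with all 6 libraries. In the other 5 fits edgeR's adjusted p was 0.137 to 0.180, and the log2 fold change was lowest, at 0.59, without the first *Fmo5*-/- mouse.

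*Mt2* (ENSMUSG00000031762.7, chromosome 8, 94172664 to 94173568) was close to the limit of what was counted. WT livers gave 15.9, 12.3 and 7.2 normalized counts and *Fmo5*-/- livers 35.4, 46.8 and 13.7. The first and second *Fmo5*-/- mice were above all WT mice and the third was among them. The log2 fold change was 1.44 (standard error 0.48, 95% confidence interval 0.35 to 2.54, edgeR adjusted p = 0.135). It was called in 1 of 6 fits that omitted a library, again without the third *Fmo5*-/- mouse (1.80, edgeR adjusted p = 0.0328), where 763 genes were called in all. In the other 5 fits edgeR's adjusted p was 0.221 to 0.356, and the log2 fold change was lowest, at 1.07, without the second *Fmo5*-/- mouse.

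The deposited unstranded count leaves out the reads that *Mt2* shares with a neighbour. The antisense gene *Gm45774* (chromosome 8, 94170748 to 94173412) covers 432 of the 588 exon bases of *Mt2* on the opposite strand, and reads that touch the exons of both genes are counted for neither when strand is ignored. The count files also hold counts of each strand alone, in which such a read is given to the gene on its own strand. The kit does not mark strand, as 49.9% to 50.1% of the stranded counts fell on the first strand, so reads of *Mt2* and of *Gm45774* cannot be told apart. Summed over both strands, *Mt2* had 74, 52 and 43 raw counts in WT livers and 126, 176 and 61 in *Fmo5*-/- livers. Unstranded, these were 15, 11 and 7 in WT livers and 38, 51 and 14 in *Fmo5*-/- livers. These sums count every shared read for *Mt2*, as they also do for *Gm45774*. The unstranded count kept 16.3% to 21.2% of that sum in WT livers and 23.0% to 30.2% in *Fmo5*-/- livers. With the summed counts the log2 fold change was 0.92 (standard error 0.37, 95% confidence interval 0.075 to 1.76, edgeR adjusted p = 0.197), and the third *Fmo5*-/- mouse lay again within the WT range. This sum was added as a setting after the data had been seen. *Mt1* has no such neighbour, and the unstranded count kept 100% of the sum of its single-strand counts in all libraries.

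**Figure D2:**
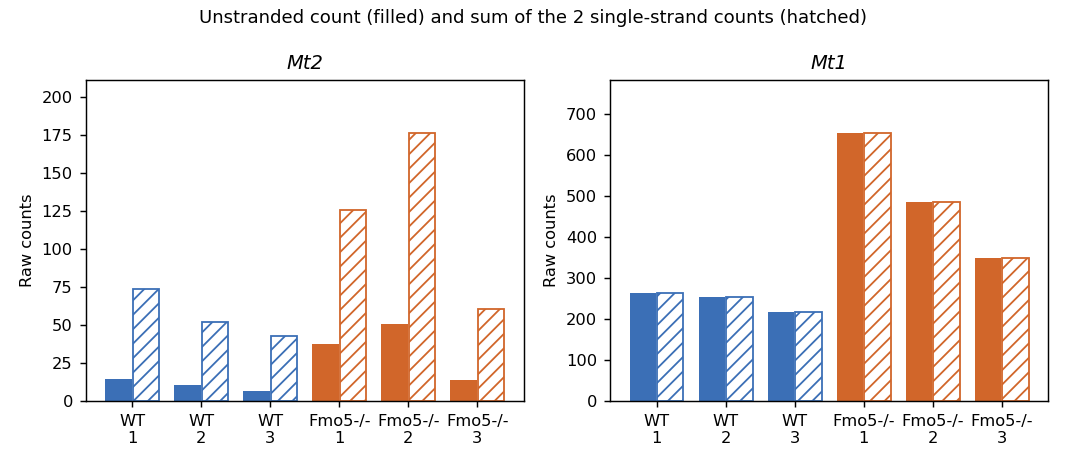
Raw counts of *Mt2* (left) and *Mt1* (right) in each of the 6 libraries, as the unstranded count (filled bars) and as the sum of both single-strand counts (hatched bars), with WT in blue and *Fmo5*-/- in orange. For *Mt2* the unstranded count is at most 30.2% of the sum, and for *Mt1* both bars are equal.

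The other metallothionein genes, *Mt3* and *Mt4*, which are known from brain and from squamous epithelia, were not tested. *Mt3* had 1 count in 1 library, and *Mt4* had 0 counts in all 6, which allows up to 3 counts in each.

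*Mtf1* (ENSMUSG00000028890.13, chromosome 4, 124802104 to 124849800), the zinc sensor, gave 694.7, 964.1 and 722.9 normalized counts in WT livers and 845.9, 671.9 and 793.3 in *Fmo5*-/- livers, and the genotypes overlapped. Its log2 fold change was -0.043 (95% confidence interval -0.36 to 0.28, edgeR adjusted p = 0.891). With 1 library left out it ran from -0.12 to 0.12, and was above 0 without the second WT mouse and without the second *Fmo5*-/- mouse. Of the 8907 exon bases of *Mtf1*, 721 lie in *1110065P20Rik* on the opposite strand, and the unstranded count kept 64.7% to 74.4% of the summed reads. With the sum the log2 fold change was -0.11 (95% confidence interval -0.35 to 0.13).

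*Slc39a4* (ENSMUSG00000063354.7, chromosome 15, 76612383 to 76617384, minus strand) encodes ZIP4, best known as the zinc importer of enterocytes and as the gene mutated in the zinc deficiency disorder acrodermatitis enteropathica. The 3 WT livers gave 1804.6, 1756.4 and 1757.6 normalized counts, and the 3 *Fmo5*-/- livers 3941.4, 3940.4 and 2765.6. The WT mice were nearly equal, and the lowest *Fmo5*-/- mouse, again the third, was above all of them. Means were 1773 ± 27.5 and 3549 ± 679 (SD over 3 mice). The log2 fold change was 1.00, with standard error 0.13, 95% confidence interval 0.70 to 1.30 and an adjusted p, from edgeR, of 0.0146. DESeq2 gave a log2 fold change of 0.98 and an adjusted p of 4.71e-09. No annotated exon of another gene overlaps its exons.

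Leaving out each library in turn, *Slc39a4* was called in 5 of 6 fits. Without the first *Fmo5*-/- mouse the log2 fold change was 0.92 and the adjusted p 0.0668 (edgeR), in a fit that called 31 genes in all. Over the 6 fits the log2 fold change stayed between 0.92 and 1.15. Summed Kupffer cell and macrophage markers were 25310, 24231 and 13850 normalized counts in the *Fmo5*-/- mice, given in the order used for *Slc39a4*. The mouse lowest for *Slc39a4* among them was also lowest for these markers, for the lymphocyte sum (357) and for the neutrophil sum (297). The first and second *Fmo5*-/- mice were nearly equal for *Slc39a4*. Their lymphocyte sums were 478 and 990, and their neutrophil sums 425 and 589. The part of these cells in the values of *Slc39a4* was not tested.

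Tissue of the gut or pancreas, where ZIP4 and ZIP5 are abundant, was looked for by markers. Of 10 intestinal epithelium markers, listed after the data had been seen, 6 stayed under 10 counts in all libraries, *Alpi*, *Cdx1*, *Cdx2*, *Cdh17*, *Sis* and *Lct* among them. *Fabp2* and *Lgals4*, which liver also expresses, made up most of their summed normalized counts of 4901 to 5985 in WT mice and 3390 to 4375 in *Fmo5*-/- mice. *Fabp2* had a log2 fold change of -0.60 (edgeR adjusted p = 0.0564, DESeq2 adjusted p = 0.000845), with *Fmo5*-/- mice below all WT mice. The other 2 were rare, and for both the genotypes did not overlap, with the *Fmo5*-/- mice higher, where 27.4% of all tested genes showed no overlap. *Vil1* had 8.47, 7.81 and 10.2 normalized counts in WT livers and 16.8, 11.9 and 10.8 in *Fmo5*-/- livers (edgeR adjusted p = 0.380). *Muc2* had 4.24, 4.46 and 5.11 in WT livers and 14.0, 7.34 and 8.84 in *Fmo5*-/- livers, and was too rare to test. The part of such tissue in the values of *Slc39a4* was not tested. Of 7 pancreatic acinar markers, 6 stayed under 10 counts in all libraries and 3 of them, *Cpa1*, *Cela3b* and *Cel*, were at 0 throughout. Their sums were 7.81 to 23.5 in WT mice and 13.8 to 24.2 in *Fmo5*-/- mice.

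**Figure D3:**
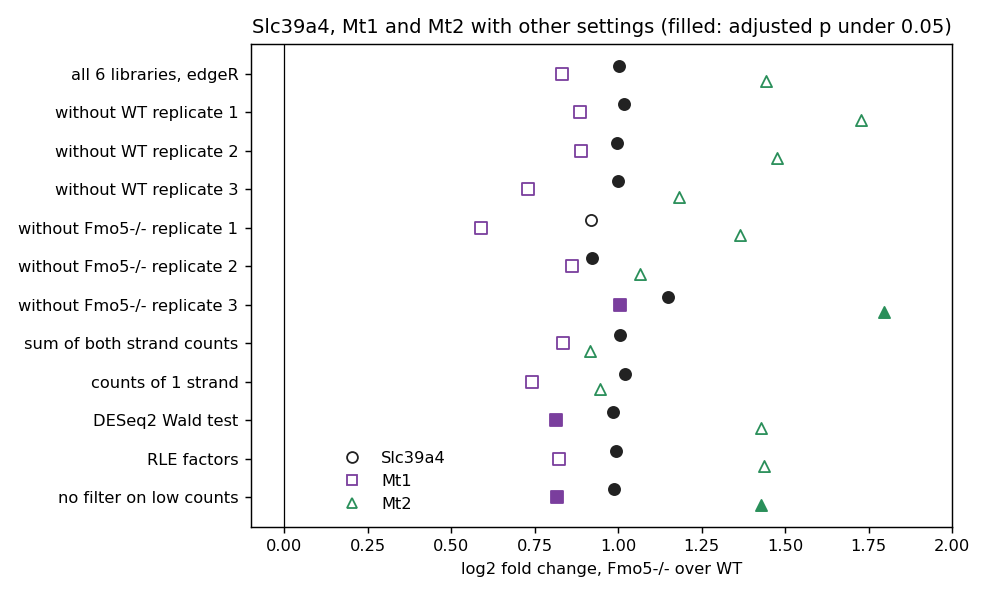
Log2 fold changes of *Slc39a4* (circles), *Mt1* (squares) and *Mt2* (triangles) with all 6 libraries, without each library in turn and with other counts, tests, scaling and filters, with filled symbols where the adjusted p is under 0.05. *Slc39a4* stays between 0.92 and 1.15 and is open only without the first *Fmo5*-/- mouse, while *Mt2* ranges from 0.92 to 1.80.

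*Slc39a14* encodes ZIP14, a main importer of zinc, manganese and iron not bound to transferrin in hepatocytes, and it is known as a target of interleukin-6. The gene (ENSMUSG00000022094.15, chromosome 14, 70303469 to 70351425) was counted at 7119.8, 13099.3 and 7221.5 in WT livers and at 9784.2, 7656 and 10323.2 in *Fmo5*-/- livers, after normalization. The second WT mouse was the highest of all 6, and the other WT mice were the lowest. The log2 fold change was 0.017 (95% confidence interval -0.60 to 0.63, edgeR adjusted p = 0.978), and without the second WT mouse it was 0.37 (adjusted p = 0.225). That mouse also had the highest *Saa1* among the WT mice, with 7525 normalized counts against 1226 and 857. Among the *Fmo5*-/- mice it was the other way, since the mouse with the highest *Saa1*, 9169, had the lowest *Slc39a14*. *Saa1* was picked out after its values were seen. *Saa3*, of the same list of acute phase genes, was not highest in the second WT mouse, at 155 against 249 and 150. A link of *Slc39a14* with either gene was not tested.

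*Slc39a8* encodes ZIP8, which takes up manganese and zinc, and *Slc39a1* encodes the widely expressed plasma membrane importer ZIP1. *Slc39a8* (ENSMUSG00000053897.15, chromosome 3, 135825279 to 135888572) ranged from 1402 to 1668 normalized counts in the WT mice and from 1372 to 1590 in the *Fmo5*-/- mice. Its log2 fold change was 0.0050 (95% confidence interval -0.21 to 0.22, edgeR adjusted p = 0.983). *Slc39a1* (ENSMUSG00000052310.9, chromosome 3, 90248172 to 90253612) ranged from 2548 to 2605 in the WT mice and from 2544 to 2838 in the *Fmo5*-/- mice, with a log2 fold change of 0.044 (95% confidence interval -0.13 to 0.22, edgeR adjusted p = 0.787). Both lie on the chromosome of *Fmo5*, *Slc39a1* at 7.38 Mb from it and *Slc39a8* at 38.2 Mb. For these genes the intervals leave out changes of more than about 0.22 on the log2 scale in either direction.

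*Slc39a5* (ENSMUSG00000039878.13, chromosome 10, 128395931 to 128401229), the gene of ZIP5, was rare. Raw counts lay between 15 and 56 per library. Normalized, they were 59.3, 27.9 and 23.5 in WT livers and 14, 29.4 and 20.6 in *Fmo5*-/- livers. The genotypes overlapped, and the log2 fold change of -0.79 had a 95% confidence interval from -1.73 to 0.16 (edgeR adjusted p = 0.316). The first WT mouse set much of it, since without that mouse the log2 fold change was -0.26.

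*Slc30a1*, encoding the plasma membrane zinc exporter ZnT1, is like *Mt1* and *Mt2* a known MTF1 target. The gene (ENSMUSG00000037434.7, chromosome 1, 191906767 to 191913247) gave 2087.3, 2052.1 and 1993.8 normalized counts in WT livers and 2192, 1438.3 and 1756.4 in *Fmo5*-/- livers. *Fmo5*-/- mice lay on both sides of the WT mice, and the log2 fold change was -0.19 (95% confidence interval -0.50 to 0.12, edgeR adjusted p = 0.471). With 1 library left out it ran from -0.36, without the first *Fmo5*-/- mouse, to -0.050, without the second.

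*Slc30a10* encodes ZnT10, which exports manganese. This gene (ENSMUSG00000026614.6, chromosome 1, 185454848 to 185468762) gave 3811.4, 3126.7 and 3794.3 normalized counts in WT livers and 3580, 2355.3 and 3798.4 in *Fmo5*-/- livers. Only the second *Fmo5*-/- mouse fell outside the WT range. The log2 fold change was -0.14 (95% confidence interval -0.55 to 0.27, edgeR adjusted p = 0.695), and without that mouse it was 0.045. Antisense or opposite genes cover 468 of the 5244 exon bases of *Slc30a1* and 533 of the 5836 of *Slc30a10*, and the unstranded count kept 86.3% to 92.7% of their summed reads.

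Levels were compared between genes as normalized counts per kilobase of exon. In WT mice *Slc39a1* came first, with 1086 ± 14.0 per kilobase, and was followed by *Slc39a14* with 867 ± 324, *Slc30a10* with 613 ± 66.9, *Slc39a4* with 571 ± 8.85 and *Slc30a1* with 390 ± 9.01 (SD, n = 3 each). *Mt1* had 210 ± 26.9, *Slc39a8* 197 ± 18.2, *Mtf1* 89.1 ± 16.6, *Mt2* 20 ± 7.46 and *Slc39a5* 16.6 ± 8.77. The WT ranges overlapped for the neighbours *Slc39a1* and *Slc39a14*, *Slc30a10* and *Slc39a4*, *Mt1* and *Slc39a8*, and *Mt2* and *Slc39a5*.

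In *Fmo5*-/- mice *Slc39a4* came first, with 1143 ± 218 per kilobase, in a range that overlapped that of *Slc39a1* with 1120 ± 70.1. *Mt1*, with 373 ± 107, stood before *Slc30a1*, with 342 ± 72.1, and these also overlapped. The order depends on the length used. By the principal transcript, which has 549 bases for *Mt1* and 4926 for *Slc39a14* in place of 1246 and 10550 exon bases, *Slc39a14* came first in both genotypes, with 1857 ± 695 in WT mice, and *Mt1* had 477 ± 61.1 in WT mice and 847 ± 243 in *Fmo5*-/- mice. The level of *Mt2* leaves out all reads that it shares with *Gm45774*, and how many of those came from *Mt2* is not known.

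**Figure D4:**
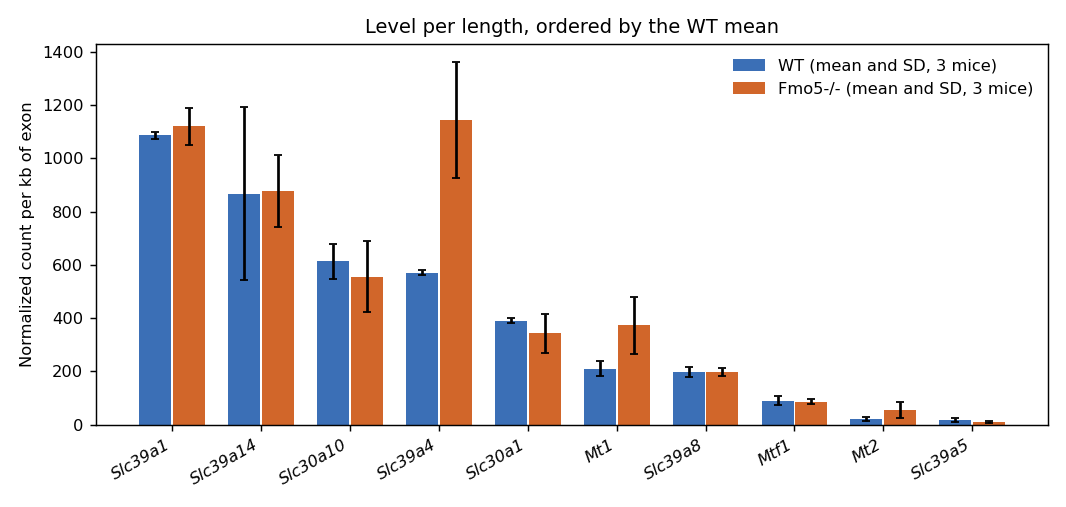
Normalized counts per kilobase of exon for the 10 genes, as mean bars with SD over 3 WT (blue) and 3 *Fmo5*-/- (orange) mice, in the order of the WT means. *Slc39a4* moves from the fourth place in WT mice (571) to the first in *Fmo5*-/- mice (1143), and *Mt2* and *Slc39a5* are lowest.

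Of the 9 other ZIP genes, 8 were tested and *Slc39a12* was not. By edgeR's test 0 of the 8 were called, with 3 at an unadjusted p under 0.05, and DESeq2 called 1, *Slc39a9*. Over all genes the share at such a p was 21.8%, and DESeq2 called 8.96%. *Slc39a9*, encoding ZIP9 of the Golgi, had 2282 to 2562 normalized counts in the WT mice and 1934 to 2112 in the *Fmo5*-/- mice, a log2 fold change of -0.30 (95% confidence interval -0.48 to -0.11, edgeR adjusted p = 0.0869). *Slc39a10* had a log2 fold change of -0.33, *Slc39a11* of -0.18, *Slc39a7* of -0.17 and *Slc39a6* of -0.0029. For *Slc39a2* it was 0.26, for *Slc39a13* 0.24 and for *Slc39a3* 0.22. The median over the 8 was -0.085, against 0.0058 over all tested genes. The genotypes did not overlap for *Slc39a3*, *Slc39a9*, *Slc39a10*, *Slc39a11* and *Slc39a13*, 5 of the 8, against 27.4% of all tested genes.

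Of the 8 other ZnT genes, 6 were tested, while *Slc30a2* and *Slc30a8* were too rare to test. All 6 had lower means in *Fmo5*-/- mice, where 50.8% of all tested genes were higher. EdgeR called 0 of the 6, with 1 at an unadjusted p under 0.05 (21.8% over all tested genes), and DESeq2 called 0 (8.96% over all genes). The log2 fold changes were -0.21 for *Slc30a3*, -0.20 for *Slc30a7*, -0.12 for *Slc30a9*, -0.11 for *Slc30a6*, -0.089 for *Slc30a4* and -0.077 for *Slc30a5*. *Slc30a7*, encoding a Golgi transporter and lying on chromosome 3, had 1041 to 1164 normalized counts in the WT mice and 901 to 995 in the *Fmo5*-/- mice (edgeR adjusted p = 0.200).

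**Figure D5:**
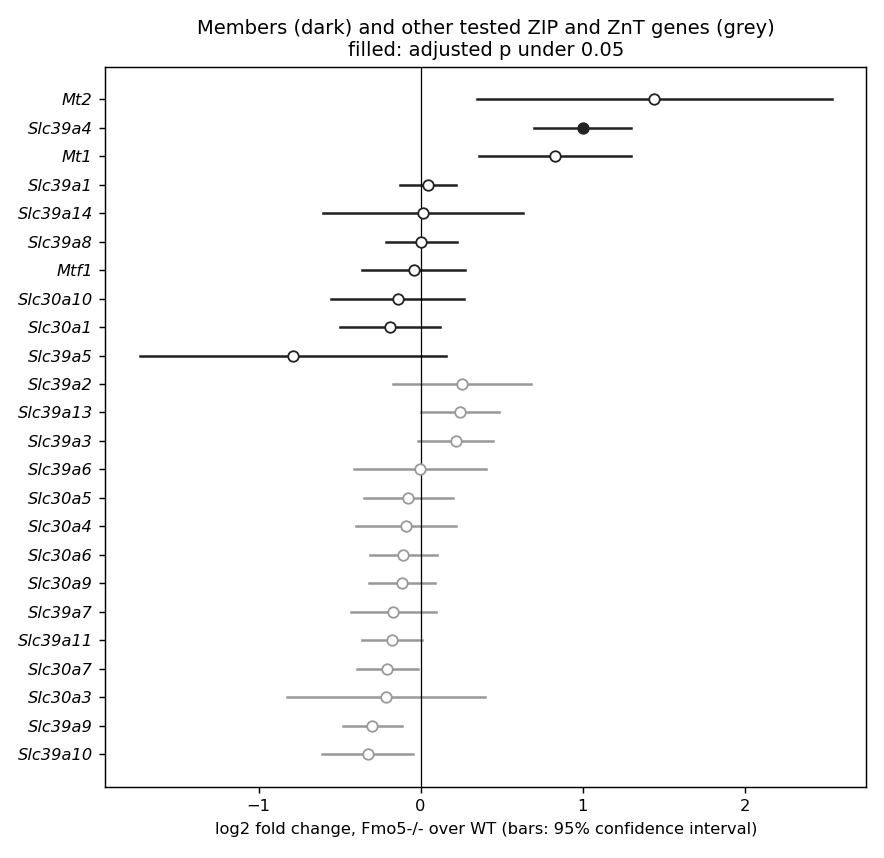
Log2 fold changes, *Fmo5*-/- over WT, of the 10 genes described (dark) and of the other 14 tested ZIP and ZnT genes (grey), with 95% confidence intervals and a filled point where edgeR's adjusted p is under 0.05. Only *Slc39a4* is filled, at 1.00. The other ZIP and ZnT genes lie between -0.33 and 0.26.

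Copper and manganese are handled by other carriers, chaperones and pumps. EdgeR called 0 of 13 such genes, with 4 at an unadjusted p under 0.05 (21.8% over all tested genes), and DESeq2 called 1 (8.96% over all genes). That gene was *Slc11a1*, a metal carrier of macrophage phagosomes, with 336 to 382 normalized counts in WT mice and 469 to 798 in *Fmo5*-/- mice (log2 fold change 0.86, edgeR adjusted p = 0.0554). *Slc11a2*, the iron and manganese importer DMT1, had a log2 fold change of 0.36 and *Atp2c1*, a Golgi calcium and manganese pump, one of -0.30 (edgeR adjusted p = 0.113 and 0.156).

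Of the responses that can induce metallothionein genes, the acute phase and interleukin-6 genes had a median log2 fold change of 0.35. Of these 21 genes 16 were higher in *Fmo5*-/- mice, where 50.8% of all tested genes were higher. The 5 lower ones had log2 fold changes between -0.075 and 0. EdgeR called 0 of the 21, with 7 at an unadjusted p under 0.05 (21.8% over all tested genes), and DESeq2 called 4 (8.96% over all genes). *Saa3*, an acute phase apolipoprotein gene, had 150 to 249 normalized counts in WT mice and 592 to 1660 in *Fmo5*-/- mice (log2 fold change 2.42, edgeR adjusted p = 0.0776). *Hpx*, the gene of the haem carrier hemopexin, had a log2 fold change of 0.51 and *Il1r1*, an interleukin-1 receptor gene, one of 0.39 (edgeR adjusted p = 0.0662 and 0.0606). *Lcn2*, the gene of the siderophore-binding lipocalin 2 and the other one that DESeq2 called, had a log2 fold change of 2.75 (edgeR adjusted p = 0.163, DESeq2 adjusted p = 0.0224). The genotypes did not overlap for 8 of the 21 genes, these 4 among them, against 27.4% of all tested genes.

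The 12 glucocorticoid response genes had a median log2 fold change of -0.054. EdgeR called 0, with 0 at an unadjusted p under 0.05 (21.8% over all tested genes), and DESeq2 called 0 (8.96% over all genes). Among them *Lpin1* had a log2 fold change of -0.41, *Zbtb16* of 0.30 and *Dusp1* of -0.59, and the genotypes overlapped for all 12, where 27.4% of all tested genes showed no overlap. Of 9 tested oxidative stress genes 7 had lower means in *Fmo5*-/- mice, where 50.8% of all tested genes were higher, and the median was -0.13. EdgeR called 0 of the 9, with 3 at an unadjusted p under 0.05 (21.8% over all tested genes), while DESeq2 called 3 (8.96% over all genes), all lower, which were *Nfe2l2*, the gene of the oxidant-responsive factor NRF2, and *Gclm* and *Gclc*, the subunits of the first enzyme of glutathione synthesis. Their log2 fold changes were -0.29, -0.35 and -0.62 (edgeR adjusted p = 0.0938, 0.0972 and 0.173).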

How the data were processed

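RNA-seq was analysed for the livers of 3 WT and 3 *Fmo5*-/- mice, with 1 library per mouse. The authors clipped adapters, mapped single reads of 75 bases to mm10 with STAR 2.6.0c and deposited STAR's raw counts per gene, unstranded and for each strand. The annotation release is not given in the sources used here. They also deposited normalized signal (counts over 1 DESeq2 size factor per library), which gave the gene symbols, and the log2 fold changes, score and p-values of their own DESeq2 1.22.2 comparison, which were not used. Columns that hold counts of 1 strand, deposited as whole numbers and listed as other, served as alternatives.

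Unstranded counts were kept by filterByExpr (minimum count 10), scaled with TMM factors and tested in edgeR 4.0.16 (R 4.3.3) by its robust quasi-likelihood method. Normalized counts are counts over the scaled library size, times the mean size. Counting on genes took 66.2% to 69.2% of reads. Reads mapping to several places (10.4% to 13.1%) or to more than 1 gene (3.52% to 3.98%) were left out by the authors. Standard errors are the size of the log2 fold change over the root of F. Positions and exon lengths came from GENCODE vM21. Steps were tested on simulated data. With 3 mice against 3, an exact permutation test cannot give a p below 0.1. The study's limit of 500 on the mean count, DESeq2 1.42.0, RLE, other filters and strands, and leaving out each library were alternatives.

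The genes named are the 10 members, *Fmo5* and all ZIP, ZnT and metallothionein genes, tested or not. *Gm45774* and *1110065P20Rik*, which overlap members, are also named. Of the copper and manganese, acute phase, glucocorticoid and oxidative stress lists, the called genes are named or, if none, the 3 with the smallest adjusted p. The rule did not cover cell type markers, of which those called are named. *Saa1*, *Lcn2*, *Ly6g* and the gut and pancreatic markers were named after their values were seen. Members and lists were chosen with earlier results of these data known.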

Additional observations from a re-analysis of the deposited data

How the results depend on the processing

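*Slc39a4* was called in each setting tried except without the first *Fmo5*-/- mouse. The number of members called was 1, where 1.37% of all tested genes were called. It was 2 with DESeq2 (8.96% over all genes) and 3 with no filter on low counts (1989 of 34200 genes). With 1 library left out it ran from 0 to 3. It was 0 without the first *Fmo5*-/- mouse, where 31 of 17043 genes were called, and 3 without the third, where 763 of 17130 were. *Mt1* was called with DESeq2 (log2 fold change 0.81) and with no filter (0.82), and *Mt2* with no filter (1.43), and both without the third *Fmo5*-/- mouse. The cause was not tested. Signs turned for *Mtf1* where the limit of 500 preceded the fit (0.021) and for *Slc39a8* with DESeq2 (-0.011), with RLE factors (-0.0019) and with no filter (-0.0085), all with values near 0.

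With 1 library left out, log2 fold changes ran from 0.59 to 1.01 for *Mt1*, 1.07 to 1.80 for *Mt2*, 0.92 to 1.15 for *Slc39a4*, -0.12 to 0.12 for *Mtf1*, -0.010 to 0.069 for *Slc39a1*, -0.041 to 0.088 for *Slc39a8*, -0.13 to 0.37 for *Slc39a14* and -0.27 to 0.045 for *Slc30a10*. *Slc30a1* ran from -0.36 to -0.050 and *Slc39a5* from -1.09 to -0.26.

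The number of genes called over all tested genes was 229, against 1395 with DESeq2, 1989 with no filter and 53 with the limit of 500, and 31 to 763 with 1 library left out. EdgeR called 0 genes in each of the lists of other ZIP, copper and manganese, acute phase and oxidative stress genes. Calls there were 1 with DESeq2 and 1 with no filter for other ZIP genes, 1 and 3 for copper and manganese genes, 4 and 4 for acute phase genes and 3 and 4 for oxidative stress genes. With 1 library left out they were 0 to 1 for copper and manganese and for acute phase genes. The median of the other ZIP genes was 0.084 with the limit of 500. Medians with 1 library left out ran from -0.12 to -0.0038 for other ZIP genes, -0.17 to -0.075 for ZnT genes, -0.080 to -0.023 for copper and manganese genes, 0.27 to 0.42 for acute phase genes, -0.24 to 0.047 for glucocorticoid genes and -0.20 to -0.12 for oxidative stress genes. No paired analysis was possible because the labels give no replicate numbers. Counts under 60 per library limit *Mt2* and *Slc39a5*. With the limit of 500 neither these genes nor *Mt1* were tested.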
